A study of Arabidopsis thaliana with 12 samples.

Results

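Lipid transfer protein genes were followed across seedlings treated with abscisic acid (ABA). The set holds the 94 loci, of 32627 on the array, whose deposited annotation contains the words "lipid transfer protein" in their name or protein domain text. The 2S albumins at AT4G27140, AT4G27150, AT4G27160 and AT4G27170, which share the fold, are left out by the same rule, although their annotation lacks the phrase and none had matched. SESA5, another seed storage albumin, does match and is among the 94. Because the choice rests on text, it also takes in glycolipid transfer proteins, which are a different kind of protein, and it misses lipid transfer proteins whose annotation uses other words.

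Plant lipid transfer proteins are small secreted proteins in which conserved cysteines, joined by disulfide bridges, hold helices around a cavity that takes up fatty acids and other lipids. They are known for carrying wax, cutin and suberin building blocks to the cell surface, and some act in defence signalling. A subgroup is tied to the outer face of the plasma membrane by a glycosylphosphatidylinositol (GPI) anchor. ABA is the hormone of drought and seed dormancy, and several members are textbook drought-responsive genes.

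RNA came from whole 10-day-old seedlings of Arabidopsis thaliana, accession Col-0, of 3 genotypes. These were wild type, gem1 (a T-DNA insertion) and GEMoe (a 35S overexpressor of GEM, driven by a viral promoter that is active in most cells). Each genotype was sampled without treatment and after 2 hours of 100 µM ABA, with 2 biological replicates in each of 6 groups and 1 one-colour array per replicate, 12 in all. The labels hold no mock treatment, so effects of handling or of the hours passed and effects of ABA cannot be told apart.

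Values are the authors' log2 expression values. Array medians lay between 12.16 and 12.22, and the highest value on any array was 15.95, so differences between values over 15 are compressed. Between 11.4% and 11.8% of the values of an array were over 15. The main GEM feature read 14.13 to 14.48 on the 4 wild-type arrays, 14.38 to 14.61 on the 4 labelled gem1 and 15.73 to 15.81 on the 4 labelled GEMoe. A second GEM feature had medians of 9.46, 11.43 and 10.46 in that order. It read 9.32 to 9.65 in wild type, 11.16 to 11.62 on the arrays labelled gem1 and 9.38 to 11.98 in GEMoe. The main feature was therefore higher in the overexpressor. Neither feature had a lower median on the arrays labelled gem1, and the second was higher there than on every wild-type array. Where the insertion lies relative to the probes is unknown, so these values cannot check that label. The 3 green tissue markers and the 3 shoot epidermis markers were not called in either direction, but their untreated means all lay in the compressed range over 15, so they say little about tissue make-up. Of 3 root markers, 2 fell on the log2 scale: CASP1 by 0.29, within the compressed range (means of 15.50 and 15.21), and SCR by 0.50. The other, RHD6, changed by -0.31 and was not called in either fit. None of the 3 anther and pollen markers was called (1 with the block, AMS, by 0.29). Whether a change reflects fewer cells of a type or less RNA per cell cannot be told apart in whole seedlings.

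Averaged over the 3 genotypes, 9 lipid transfer protein loci were higher after ABA and 4 were lower by limma (Benjamini-Hochberg adjusted p under 0.05 over all loci), where 5.6% and 5.2% of all loci were. These counts are 13 of 94, or 13.8%, against 10.8% of all loci. Of the rises, 5 exceeded a log2 change of 2: AT2G37870, LTP4, LTP3, AT1G05450 and AT5G13900. With the replicate number as a block, 14 members were higher and 9 lower, against 9.27% and 12.9% of all loci. That is 24.5% of the members and 22.2% of all loci. Taken over both directions, the called share of members was thus near that of the array as a whole in both fits. By direction, called rises outnumbered called falls among members in both fits, which over all loci held only without the block. This difference was not tested. The set did not move as one: 49 of 94 members had a positive change, and the median was 0.01, against -0.03 over all loci.

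**Figure D1:**
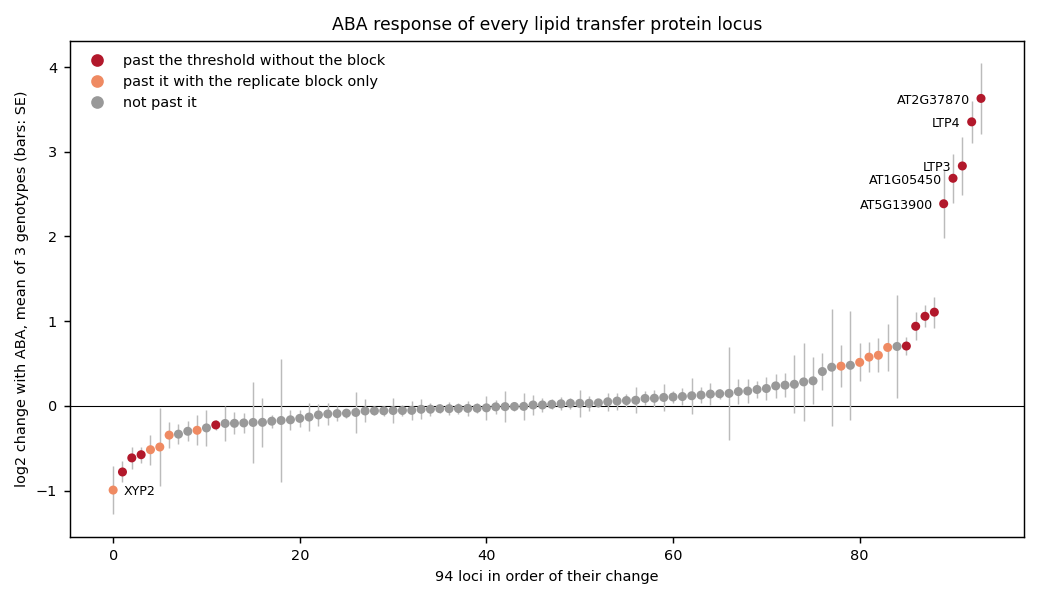
Change with ABA averaged over the 3 genotypes (log2, vertical axis) for each of the 94 loci in rising order (horizontal axis), with standard errors as bars and colours for the fit in which a locus passed the threshold. The 5 largest rises, from 2.39 to 3.63, stand above the other loci, and 62 loci lie within 0.25 of no change.

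Calls were found among bright members. All 13 called members, and all 23 called with the block, were among the 55 loci with a mean of at least 10 on the log2 scale. They make up 23.6% and 41.8% of those loci, where 13.9% and 28.2% of the 23435 equally bright loci on the array were called. None of the 39 dimmer members was called, and their changes ran from -0.20 to 0.46. Dim loci of the whole array were called less often too, since 10.8% of all loci were called against 13.9% of the bright ones. With the block these shares were 22.2% and 28.2%. The called share among equally dim loci was not counted, so the lack of calls is not shown to be particular to the members. Low expression and probes of weak signal cannot be told apart in these dim members.

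At the top of the range, 6 members lay over 15 on all 12 arrays, where the compression leaves little to see. AT2G45180 ran from 15.75 to 15.87, AT2G10940 from 15.69 to 15.87 and AT4G22505 from 15.66 to 15.78, and none was called. Among the dim members, AT5G38195 ran from 7.30 to 7.49 and AT5G38180 from 7.34 to 8.05, and AT3G12545 did not exceed 7.82. AT5G07230 ran from 8.20 to 9.01, with an averaged change of -0.20 that was not called.

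LTP3 and LTP4 are classical, soluble lipid transfer proteins that lie side by side on chromosome 5 (23928971 to 23929745 and 23925085 to 23925852 in the array annotation, for which the sources used here name no genome build). LTP3 is known as a target of the ABA-responsive factor MYB96. Without treatment, LTP4 read 12.14 and 11.04 in wild type, 12.17 and 11.15 in gem1 and 11.07 and 11.06 in GEMoe. After ABA it read 14.81 and 14.84, 14.71 and 14.95, and 15.01 and 14.43 in the same order. Every treated array was above every untreated one. Its mean rose 10.2-fold, a log2 change of 3.35 (SE 0.24, limma adjusted p = 0.000258, higher in 6 of 6 pairs).

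LTP3 read 12.97 and 11.70 in untreated wild type, 13.40 and 11.91 in gem1 and 13.13 and 11.95 in GEMoe. With ABA the values were 15.33 and 15.24, 15.25 and 15.40, and 15.36 and 15.47. The groups did not overlap, and the second replicate was the lower one in each untreated genotype while the treated arrays were close together. LTP3 rose 7.12-fold (log2 2.83, SE 0.34, limma adjusted p = 0.00226), a value that may be understated because the treated arrays lay over 15. The genes are near copies, so how the signal divides between them is uncertain.

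The other classical members with a name were not called. LTP2, known for its part in the cuticle, lay wholly in the compressed range, between 15.39 and 15.59 without ABA and 15.53 and 15.70 with it. Its change of 0.14 was not called (limma adjusted p = 0.220), although all 6 pairs were higher. LTP5, which acts in pollen tube growth, changed by -0.05 between values that were all over 15.6, and so near the ceiling that little change could have been seen.

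LTP12 had a mean of 8.59 (SD 0.28, n = 6) untreated and 8.50 (SD 0.09, n = 6) treated. Of the other members that carry no name in the array annotation, AT2G18370 changed by 0.24, AT5G01870 by 0.20 and AT2G15325 by 0.01, and none was called in either fit.

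**Figure D2:**
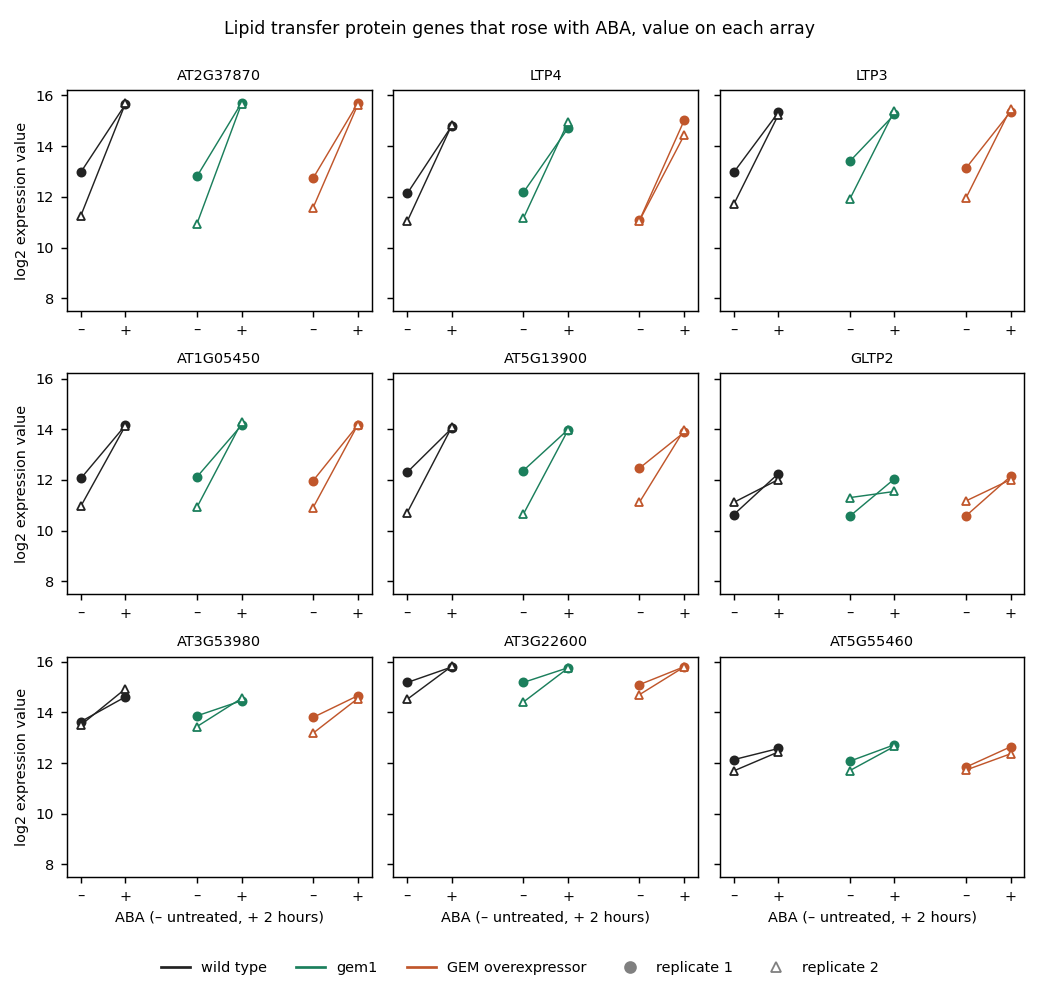
Log2 expression value (vertical axis) on each array for the 9 loci higher after ABA, untreated (–) and treated (+), with lines joining arrays of a replicate number and colours for genotype. In most panels the untreated second replicates (open triangles) sit below the first, and the treated arrays meet near one level.

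AT2G37870 (chromosome 2, 15859239 to 15859907), a family member with no symbol, had the largest change of the set. Untreated values were 12.97 and 11.26 in wild type, 12.81 and 10.94 in gem1, and 12.73 and 11.57 in GEMoe. Treated values were 15.66 and 15.69, 15.71 and 15.68, and 15.69 and 15.63. All 6 treated arrays lay within 0.1 of one another close to the ceiling, and far above the untreated ones. The rise was 12.4-fold (log2 3.63, SE 0.41, limma adjusted p = 0.0018), compressed by the level of the treated arrays.

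AT1G05450 (chromosome 1, 1599911 to 1601214) read 12.06 and 10.96 in untreated wild type, 12.12 and 10.92 in gem1, and 11.97 and 10.90 in GEMoe. All treated arrays lay between 14.14 and 14.27, clear of the untreated ones and below the ceiling. It rose 6.44-fold (log2 2.69, SE 0.29, limma adjusted p = 0.00141). A second feature of the locus, which read a mean of 7.91, was higher by 0.74 (SD 0.20 over 6 pairs) in all 6 pairs.

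AT5G13900 (chromosome 5, 4481232 to 4481889) read 12.31 and 10.72 in untreated wild type, 12.37 and 10.65 in gem1, and 12.47 and 11.12 in GEMoe. Treated arrays lay between 13.88 and 14.10. Again the second untreated replicates were the low ones and the treated group stood clear. The rise was 5.23-fold (log2 2.39, SE 0.40, limma adjusted p = 0.0092).

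Smaller rises were seen in AT3G53980 and AT5G55460, family members without a symbol. AT3G53980 went from 13.18 to 13.86 (median 13.57) untreated to 14.46 to 14.93 (median 14.58) treated, with no overlap. Its log2 change was 1.06 (SE 0.13, limma adjusted p = 0.00263), and its other feature changed by 1.10. AT5G55460 rose by 0.71 (SE 0.11, limma adjusted p = 0.00612), from 11.69 to 12.13 untreated to 12.36 to 12.72 treated. This is the smallest of the 9 rises.

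The GPI-anchored members and the xylogen proteins held both rises and falls. XYP1 and XYP2 are the Arabidopsis xylogens, proteoglycans that carry a lipid transfer domain and are known for their part in the formation of the vascular system. AT3G22600, which the RefSeq gene table also lists as LTPG5, read 14.41 to 15.18 (median 14.89) untreated and 15.74 to 15.82 (median 15.79) treated. It rose by 0.94 (SE 0.17, limma adjusted p = 0.0116), from a level near the ceiling. Its neighbour AT3G22620, 14.77 to 15.57 untreated and 15.74 to 15.83 treated, changed by 0.58, which passed only with the block (limma adjusted p = 0.0261, and 0.091 without it).

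XYP1 went up and XYP2 went down, each called only with the block. XYP1 read 13.25 to 14.69 (median 14.35) untreated and 14.60 to 15.11 (median 14.87) treated, ranges that overlap. Its change was 0.69 (limma adjusted p = 0.0129 with the block, 0.193 without), and 0.75 in its second feature. XYP2 read 12.40 to 13.52 (median 13.16) untreated and 11.41 to 12.58 (median 12.11) treated, also with overlap. It was lower in all 6 pairs, by 0.99 on average (limma adjusted p = 0.00213 with the block, 0.0676 without), the largest fall among the members. LTPG2, a wax-exporting GPI-anchored protein, changed by -0.06 and was not called. Nor were AT1G18280 (0.14) and AT4G08670 (-0.06), which the RefSeq table lists as LTPG3 and LTPG4.

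Other rises passed with the block alone. AT2G48130 changed by 0.60 (limma adjusted p = 0.0144), AT2G44300 by 0.51 (limma adjusted p = 0.00433) and AT1G62510 by 0.47 (limma adjusted p = 0.00423). AT2G48130 did not overlap between treatments, while the others did. AT2G44290, which the array annotation calls YLS3 and which lies next to AT2G44300, changed by 0.30 and was not called (limma adjusted p = 0.0508 with the block).

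The falls were smaller than the rises: no member fell by more than 1 on the log2 scale, whereas 7 rose by more than 1. The shares of all loci past these limits were not counted, so this is not shown to be particular to the members. AT4G22666 (chromosome 4, 11917057 to 11917879) read 13.89 to 14.06 (median 14.02) untreated and 12.97 to 13.66 (median 13.17) treated, without overlap. Its log2 change was -0.78 (SE 0.12, limma adjusted p = 0.0072). AT1G62790 changed by -0.23 (limma adjusted p = 0.0457), a fall that passed in only 1 of 12 fits that each left out an array, and in 3 of 12 with the block.

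AT4G12510 and AT4G12520 lie among 7 members on chromosome 4 between 7401109 and 7434858, a cluster that also holds AZI1, the azelaic acid induced protein of systemic immunity. AT4G12510 read 14.56 to 14.91 (median 14.73) untreated and 13.92 to 14.48 (median 14.02) treated, and fell by 0.61 (SE 0.13, limma adjusted p = 0.021). AT4G12520 read 14.99 to 15.22 and then 14.37 to 14.83, and fell by 0.58 (SE 0.10, limma adjusted p = 0.0084). Neither overlapped between treatments, but they are near copies and may share signal. The call of AT4G12510 passed in 7 of 12 fits that each left out an array, and in 12 of 12 with the block. AZI1 averaged 15.49 (SD 0.32, n = 6) untreated and 15.36 (SD 0.23, n = 6) treated, and its change of -0.13 was not called.

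Of the 3 glycolipid transfer proteins, which move glycolipids between membranes inside the cell, GLTP2 was higher after ABA. It read 10.57 to 11.30 (median 10.87) untreated and 11.55 to 12.25 (median 12.03) treated, without overlap. Its log2 change was 1.11 (SE 0.18, limma adjusted p = 0.00843). GLTP3 was lower in all 6 pairs, by 0.52 on average (limma adjusted p = 0.00905 with the block, 0.125 without), and its other features changed by -0.74 and -0.14. GLTP1 stayed between 14.89 and 15.24 and changed by -0.03.

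The remaining calls of the block fit were 3 falls. AT4G22610 fell by 0.49 (limma adjusted p = 0.0324), AT4G22460 by 0.35 (limma adjusted p = 0.036) and AT4G00165 by 0.29 (limma adjusted p = 0.0426). All overlapped between treatments, and AT4G22610 passed in only 3 of 12 fits with the block that each left out an array.

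Counted without a model, 11 members had all 6 treated arrays above all 6 untreated ones, where 6.14% of all loci did, and 4 had them all below, where 6.01% did. The 11 were the 9 rises, AT2G48130 and AT3G22620. The 4 were AT4G22666, AT4G12510, AT4G12520 and AT1G62790. In the other 79 the treatments overlapped.

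Many members are neighbours, and neighbours did not always move together. With a gap of at most 20 kb between members, 43 of the 94 fall into 13 groups. LTP3 and LTP4 both rose. In the 7-member group with AZI1, 2 fell, none rose, and changes ran from -0.61 to 0.28. In the 4-member group from AT3G22570 to AT3G22620, 1 rose without the block and 2 with it. In the 5-member group from AT4G22460 to AT4G22520, changes ran from -0.35 to 0.70 and only AT4G22460 was called, with the block.

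In wild type alone, 1 of 94 members, LTP4, passed without the block, where 1.37% of all loci did, and 8 with it (7 higher, 1 lower), where 6.02% did. In gem1 the counts were 1 member against 1.46%, and 7 against 5.55% with the block. In GEMoe they were 2 members against 1.55%, and 8 against 5.85% with the block. LTP4 passed without the block in each genotype: its log2 change was 3.24 in wild type (limma adjusted p = 0.0157), 3.16 in gem1 (limma adjusted p = 0.0154) and 3.65 in GEMoe (limma adjusted p = 0.00842). Each of these calls was lost when one of that genotype's own arrays was left out: untreated replicate 2 or either treated array in wild type and in gem1, and any of the 4 in GEMoe. With the block LTP4 passed in 12 of 12 such fits in each genotype.

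In GEMoe, AT1G05450 also passed without the block (log2 2.73, limma adjusted p = 0.0487), a call lost when quantile normalization was applied again (limma adjusted p = 0.0541).

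With the block, LTP4, LTP3, AT2G37870, AT1G05450 and AT5G55460 passed in all 3 genotypes. AT2G37870 changed by 3.56 in wild type, 3.82 in gem1 and 3.51 in GEMoe. LTP3 changed by 2.95, 2.67 and 2.88 in that order, and AT1G05450 by 2.64, 2.69 and 2.73. These values differ between genotypes by less than their standard errors with the block, which were 0.53 for AT2G37870, 0.45 for LTP3 and 0.38 for AT1G05450. AT5G13900 passed in wild type (2.56) and gem1 (2.46) and not in GEMoe, where its change was 2.13 (SE 0.52, limma adjusted p = 0.0633), within 1 SE of the others.

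**Figure D3:**
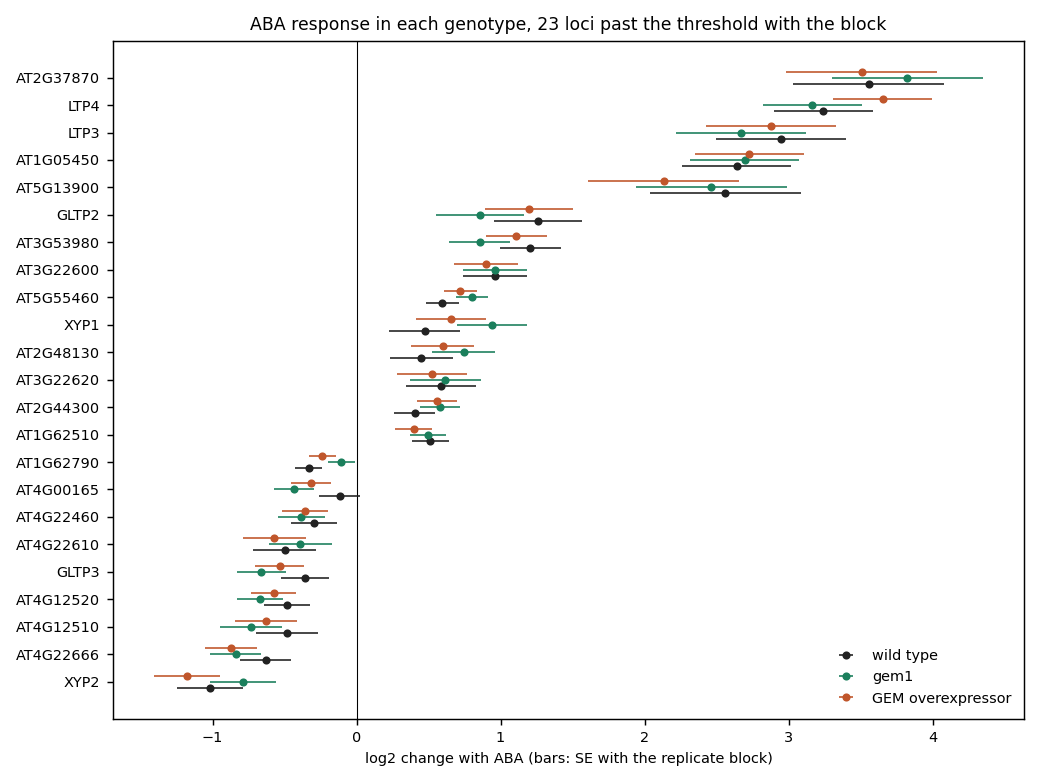
Change with ABA (log2, horizontal axis) in wild type, gem1 and GEM overexpressor for the 23 loci called with the replicate block, with standard errors of that fit as bars. The 3 genotypes of a locus lie close together for the large rises, and their bars overlap for LTP4, LTP3, AT2G37870 and AT1G05450.

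The question whether altered GEM changes the ABA response was tested as the difference of the responses. No member was called in either difference, as 0.0% of all loci were, with or without the block. At an unadjusted p under 0.05, limma found 0 members for gem1 minus wild type (3 with the block) and 1 for GEMoe minus wild type (1 with the block). Of all loci, 0.638% (2.72% with the block) and 0.549% (2.03%) were under that p, shares near those of the members. For LTP4 the difference was -0.08 for gem1 (95% confidence interval -1.47 to 1.31) and 0.41 for GEMoe (-0.98 to 1.80). For AT2G37870 it was 0.27 (-2.09 to 2.63) and -0.05 (-2.41 to 2.31). These intervals come from the fit without the block, and with intervals of this width equal responses were not shown. With the block, standard errors of the response within a genotype were smaller. They were 0.34 against 0.42 for LTP4 and 0.53 against 0.72 for AT2G37870.

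Nor was any member called in gem1 or GEMoe against wild type, without ABA, with ABA or averaged over treatments, in either fit. Background shares were 0.0%, except that 1 of 32627 loci (0.00306%) was called for GEMoe averaged over treatments. At an unadjusted p under 0.05, limma found at most 1 member without the block and at most 3 with it in any of these 6 comparisons, where 0.493% to 0.87% of all loci were, and 1.94% to 3.37% with the block. Over the 94 members, changes ran from -0.67 (AT4G22470) to 0.87 (AT5G55410) for gem1 without ABA. For GEMoe without ABA they ran from -1.35 (AT4G12500) to 0.35 (AT4G14815). With ABA, SESA5 had the lowest value in both lines, -1.97 in gem1 and -2.11 in GEMoe, and AT4G12500 the highest, 2.03 and 0.92. The direction for gem1 rests on arrays whose label the GEM features could not check.

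All of those extremes but AT4G14815 came from members that varied between replicates. SESA5, a seed storage albumin of the same family, read 13.54 on ABA-treated wild-type replicate 2 and between 8.98 and 10.50 on the other 11 arrays. AT5G55410 was also highest on that array, at 12.70, and so were the albumins AT4G27150, at 12.70, and AT4G27160, at 12.19, against at most 11.93 and 11.69 elsewhere. The albumins AT4G27140 and AT4G27170 were highest there by little, at 8.80 and 11.388 against at most 8.74 and 11.383. AT4G27150, AT4G27160 and AT4G27170 were also higher in replicate 2 than in replicate 1 of every group. The averaged ABA change of SESA5 was 0.46 with all arrays and -0.24 without that array. It was called in neither.

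AT4G12500, in the cluster with AZI1, read 12.93 and 13.71 in untreated wild type, 11.48 and 14.40 in gem1, and 10.996 and 12.94 in GEMoe. With ABA it read 11.30 and 11.88, 11.95 and 15.29, and 12.45 and 12.56. Replicate 2 was the higher in each of the 6 groups, by 1.61 on average, and the treatments overlapped entirely. Its neighbour AT4G12490, named here after its values were seen, ran from 12.31 to 15.45 and was likewise highest on ABA-treated gem1 replicate 2.

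**Figure D4:**
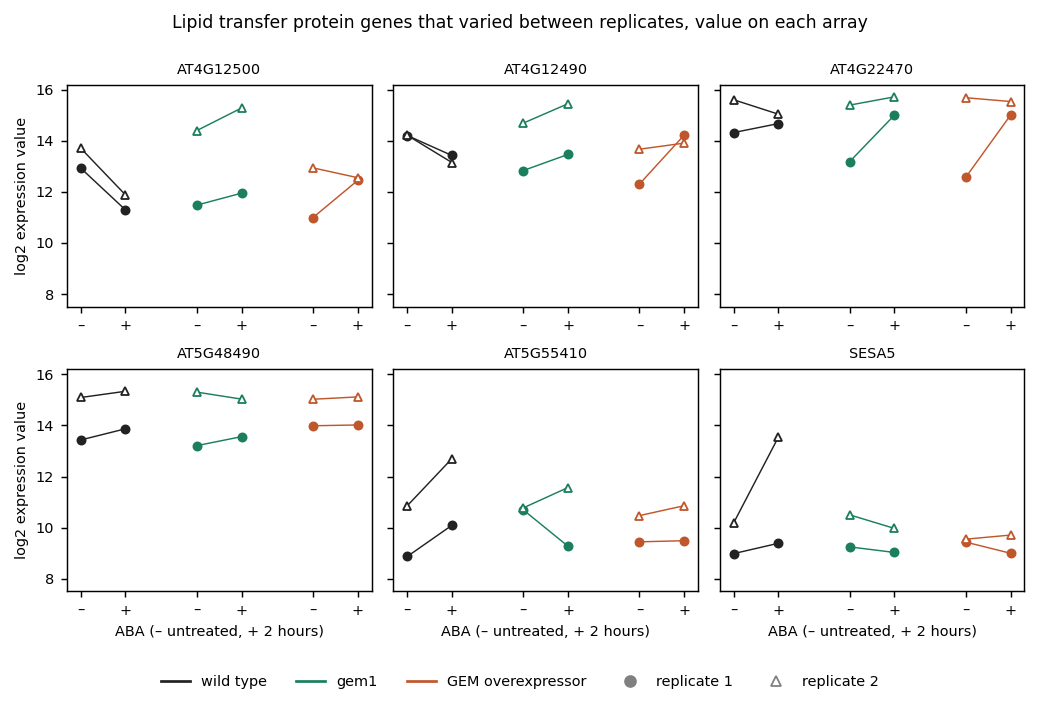
Log2 expression value (vertical axis) on each array for 6 members that varied between replicates, chosen after their values were seen, untreated (–) and treated (+). For AT5G48490 every second replicate (open triangles) lies above every first, and SESA5 has 1 array at 13.54 far above the others.

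The replicate numbers differed by a large amount in some members. In 7 of 94 members the mean of replicate 2 differed from that of replicate 1 by more than 1 on the log2 scale. Of all loci a smaller share, 4.5%, did. Besides AT4G12500, described above, AT5G48490 differed by 1.47, SESA5 by 1.40 and AT4G22470 by 1.37, while AT5G05960 differed by -1.26 and AT4G22610 by -1.23. Replicate 2 was the higher in all 6 groups for 18 members and the lower in all 6 for 13. These are 19.1% and 13.8% of the members, against 24.2% and 19.5% of all loci, and the other 63 members had no single direction.

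For the large rises the difference between replicates lay mainly in the untreated arrays, while for AT4G22610 and AT1G62510 it ran through both treatments. Of the 9 rises, 8 were lower in untreated replicate 2 than in untreated replicate 1. The share of all loci raised by ABA with this order was not counted, so it is not shown to be particular to the members. For AT2G37870 the untreated difference was -1.58 and the treated one -0.02, and for AT5G13900 they were -1.55 and 0.05. With treated arrays at nearly 1 level, close to the ceiling for AT2G37870 and LTP3, the ABA change mirrored the untreated level and was larger in replicate 2: 4.41 against 2.85 for AT2G37870, 3.52 against 2.15 for LTP3, 3.26 against 2.11 for AT1G05450 and 3.18 against 1.59 for AT5G13900. For LTP4 it was 3.66 against 3.05. GLTP2 went the other way, with 0.66 in replicate 2 and 1.55 in replicate 1. Every rise had the same direction in both replicates.

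Genes of the barriers that these proteins help to build were counted beside them. Of 19 suberin genes, 9 were higher after ABA and none lower (16 and 0 with the block), with a median change of 0.98, where 5.6% of all loci were higher and 5.2% lower (9.27% and 12.9% with the block). MYB41, a regulator of suberin, rose by 4.30 on the log2 scale, ABCG6, a transporter, by 1.87, and GPAT5, an acyltransferase, by 1.86. Of 37 cuticle genes, 4 were higher and none lower (15 and 1 with the block), against the same shares of all loci, with a median of 0.11. In this list 14 genes had an untreated mean over 15, where change is compressed, and the median of the other 23 was 0.23. In the suberin list 1 gene did, and the median of the other 18 was 1.03. The 4 were the regulators MYB96 (1.38), MYB94 (1.13) and MYB16 (0.60) and the elongase subunit KCR1 (0.26). Both lists were chosen with earlier results known. All 4 ABA markers were higher, with a median of 3.43.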

How the data were processed

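RNA from whole seedlings in 6 groups of 2 was hybridised to 12 one-colour Cy3 arrays. The authors deposited 1 log2 value per transcript and array. RMA is named, without a version, in the submitters' processing notes, and the log2 scale was inferred from the range of values (6.99 to 15.95). Per the file headers each value rests on 1 to 4 probes. RMA equalises array distributions, so a change in total RNA would not be seen. No background or saturation flags were used, and array number limits the precision.

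The arrays carried 37118 transcript features of 32627 loci. For 11 members with more than 1 feature, the feature with the highest mean stood for the locus. The 94 members came from 106 features, and all 94 were in the RefSeq gene table of assembly TAIR10.1, used for names only. A limma fit (limma 3.58.1, R 4.3.3, data.table version 1.17.8) used lmFit with 1 mean per group and eBayes without a trend over all loci. It left 6 residual degrees of freedom, with two-sided tests, Benjamini-Hochberg adjustment over all loci and a threshold of 0.05. It was tested on simulated data with independent noise on each array, which lack the shift between replicate numbers described below. Figures used Python 3.11.15 and matplotlib 3.10.9. Members and lists were chosen with earlier results of these data known.

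Replicates carry the numbers 1 and 2 in the labels of each group. Deviations of same-numbered samples from their group means correlated in all 15 pairs of groups (0.44 to 0.88, median 0.71 over all loci; 0.35 to 0.84, median 0.56 over members), so the numbers were taken to pair the samples, and a fit blocked on the replicate number, with 5 degrees of freedom left, is given where it changes a call or count. Alternatives were the block, a variance trend, leaving out the dimmest 30% of loci, arrays shifted to 1 median, quantile normalization again, the mean of all features, the whole-series table, a minimum log2 change of 1, and each array left out in turn with and without the block. Values within each replicate number were added after seeing the data. Members were named by a rule: up to 10 rises and 10 falls per contrast among those called, the numbered LTP, LTPG, AZI1 and A9 genes where they are members, and the members with the highest, lowest and most variable values. Others were named outside this rule. Among them were further calls of the block fit, AT2G44290, GLTP1, AT1G18280, AT4G08670, AT4G14815 and members with large differences between replicates.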

Additional observations from a re-analysis of the deposited data

Results flagged for a closer look

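In 4 of the members named by the rule above, the ABA change of an altered line had the opposite sign to that of wild type in both replicates. The other members were not examined in this way, and the share of all loci with such a pattern was not counted. Each group has 2 samples. None of these differences passed after adjustment over all loci (limma adjusted p from 0.986 to 1 in both fits). AT4G12500 differed by 2.40 on the log2 scale in gem1 minus wild type (-1.73 in wild type, 0.68 in gem1, limma p before adjustment = 0.218). SESA5 differed by -2.25 in the same comparison (1.88 in wild type, -0.37 in gem1, limma p before adjustment = 0.221), and its wild-type value rests on ABA-treated replicate 2. AT5G07230 differed by 0.72 in GEMoe minus wild type (-0.54 in wild type, 0.19 in GEMoe, limma p before adjustment = 0.0406). AT3G57310, whose values lay between 7.54 and 8.16, differed by 0.32 in gem1 and by 0.12 in GEMoe (limma p before adjustment = 0.229 and 0.628). These p-values are from the fit without the block. With it, limma p before adjustment was 0.0649 for AT4G12500, 0.0959 for SESA5 and 0.00587 for AT5G07230. For AT3G57310 it was 0.16 in gem1 and 0.56 in GEMoe. The groups hold 2 samples each, so single samples could not be set against their group by an outlier test.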

How the results depend on the processing

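The count of members called in the ABA response averaged over 3 genotypes was 13. It was 23 with the replicate block and 7 with a minimum log2 change of 1, and stayed within 1.5 times of 13 under the other alternatives. Leaving out an array leaves 1 sample in its group, assumed to vary like the others. It gave 11 to 15, and 18 to 23 with the block kept. In wild type (1 member) the count was 8 with the replicate block, 5 with a variance trend, 3 without the dimmest loci and 2 with arrays shifted to 1 median. In gem1 (1 member) it was 7 with the block, 3 with the trend, 3 without the dimmest loci, 2 with arrays shifted and 2 with the mean of all features. In GEMoe (2 members) it was 8 with the block, 5 with the trend and 1 with quantile normalization again. Leaving out each array gave 0 to 4 in wild type, 0 to 3 in gem1 and 0 to 4 in GEMoe, and with the block kept 1 to 10, 1 to 9 and 1 to 8. The replicate block changed no call in the genotype comparisons or differences of response, which stayed at 0 under every alternative run. No direction of a named gene changed under alternatives that kept all 12 arrays. With an array left out, 10 uncalled averaged changes changed sign: AT2G15325 (-0.0332 to 0.0536), LTP12 (-0.2153 to 0.0228), LTPG2 (-0.143 to 0.0324), AZI1 (-0.2658 to 9e-04), AT2G45180 (-0.0277 to 0.0122), AT5G38180 (-0.1546 to 0.073), AT3G57310 (-6e-04 to 0.1804), AT3G12545 (-0.0049 to 0.0645), SESA5 (-0.237 to 1.1492) and AT4G12500 (-0.7289 to 0.3833). The cause of the changed counts was not tested. Among the large rises, all treated arrays of AT2G37870 and LTP3 lay over 15, where differences are compressed.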
